A study of Mus musculus with 2 samples.

Results

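The genes described here encode the core of cyclic AMP (cAMP) signalling: adenylyl cyclases (Adcy), cyclic nucleotide phosphodiesterases (Pde), subunits of protein kinase A (PKA, Prka), the PKA inhibitor peptides (Pki) and the numbered A-kinase anchoring proteins (Akap). They were chosen by a rule on gene names, set with earlier results of these data known. The rule took every non-control probe on both arrays whose annotated name fell in these families. It gave 116 probes for 61 of the 22146 genes with a symbol on the array. The name rule also takes in Pde4dip, Pde6d and Pde12, 3 genes outside the phosphodiesterase classes used here, which are kept apart below. Pde6g and Pde6h, the inhibitory subunits of the photoreceptor enzymes, are kept with the cGMP-specific genes.

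Total RNA came from dissociated hippocampal cultures of embryonic day 16.5 ICR mice at 12 days in vitro, on single-colour (Cy3) Agilent whole mouse genome arrays. There was 1 array of a control culture and 1 of a culture kept for 2 days in tetrodotoxin (TTX), which blocks voltage-gated sodium channels and so silences action potentials. Both cultures carried 5.5% serum and had received 5 µM Ara-C against dividing glia. For the TTX dose the labels conflict, with 2 mM in a sample name and 2 µM in the description of the design, and they give no number of embryos or dishes per sample. With 1 array a group no difference has a replicate check, no test between conditions was possible, and precision is limited by there being so few arrays. In bulk RNA, fewer cells of a type and less RNA per cell cannot be told apart.

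Adenylyl cyclases make cAMP from ATP when receptors coupled to the stimulatory G protein Gs are engaged, and some of them also respond to calcium. cAMP releases the catalytic subunits of PKA from its regulatory subunits, anchoring proteins hold PKA next to its substrates, and phosphodiesterases break cAMP down. In hippocampal neurons this pathway links calcium entry and neuromodulators to synaptic strength and to transcription through CREB.

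Of the 61 genes, 46 were measured, meaning that a probe was well above background on both arrays, and 78 of the 116 probes met that criterion. Pde6c was above background on the control array only, with signals of 22.0 in control and 4.02 in TTX. The bound from these is 1.12-fold lower in TTX. The scanner software's error was 1.47 log2 for this gene, so no direction is claimed for it. The other 14 were above background on neither array: the cyclases Adcy4, Adcy7, Adcy8 and Adcy10, the phosphodiesterases Pde1c, Pde3a, Pde6b, Pde6h, Pde7b, Pde8a and Pde11a, and the anchoring proteins Akap3, Akap4 and Akap14. For these no difference can be given. Differences below are log2 values of TTX minus control at a gene's brightest measured probe after quantile normalization, and signals are the normalized intensities. The scanner software's own error of a difference was 0.20 log2 for the median member and at most 0.42, and the spread between repeated spots of 1 probe was 0.15 log2 (SD, 261 probes). The software's error was also 0.20 at its lowest, so it was almost the same for most members. The SD between repeated spots was 0.31 for the dimmest 20% of measured probes and 0.06 for the brightest 20%. Neither value covers the variation between cultures.

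Genes of 4 families stood at least 2-fold apart, 2 among the anchoring proteins and 1 in each of the other 3. No PKA subunit, PKA inhibitor, cAMP-specific phosphodiesterase or other Pde-named gene did. The calcium-stimulated cyclase Adcy1, the postsynaptic anchor Akap5 and the cGMP-stimulated phosphodiesterase Pde2a were at least 2-fold lower in TTX. The cGMP phosphodiesterase Pde9a and the scaffold Akap12 were at least 2-fold higher. These are 3 lower and 2 higher genes of 46, or 6.52% and 4.35%, where 3.4% and 2.09% of all 14016 measured genes passed the same rule. At 1.5-fold there were 5 lower and 4 higher members, where 8.64% and 7.66% of all measured genes were lower and higher, and 80.4% of the members differed by less than 1.5-fold against 83.7% of all measured genes. The median member was at 0.10, with 16 below 0 and 30 above. All measured genes had a median of 0.01, with 6837 below 0 and 7166 above. Of the 30 members above 0, 9 changed sign under at least 1 other way of processing. The median member moved to -0.01 with scaling on spike-in controls, which put all genes at -0.09. These shares and medians describe 2 arrays and were not tested against each other.

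**Figure D1:**
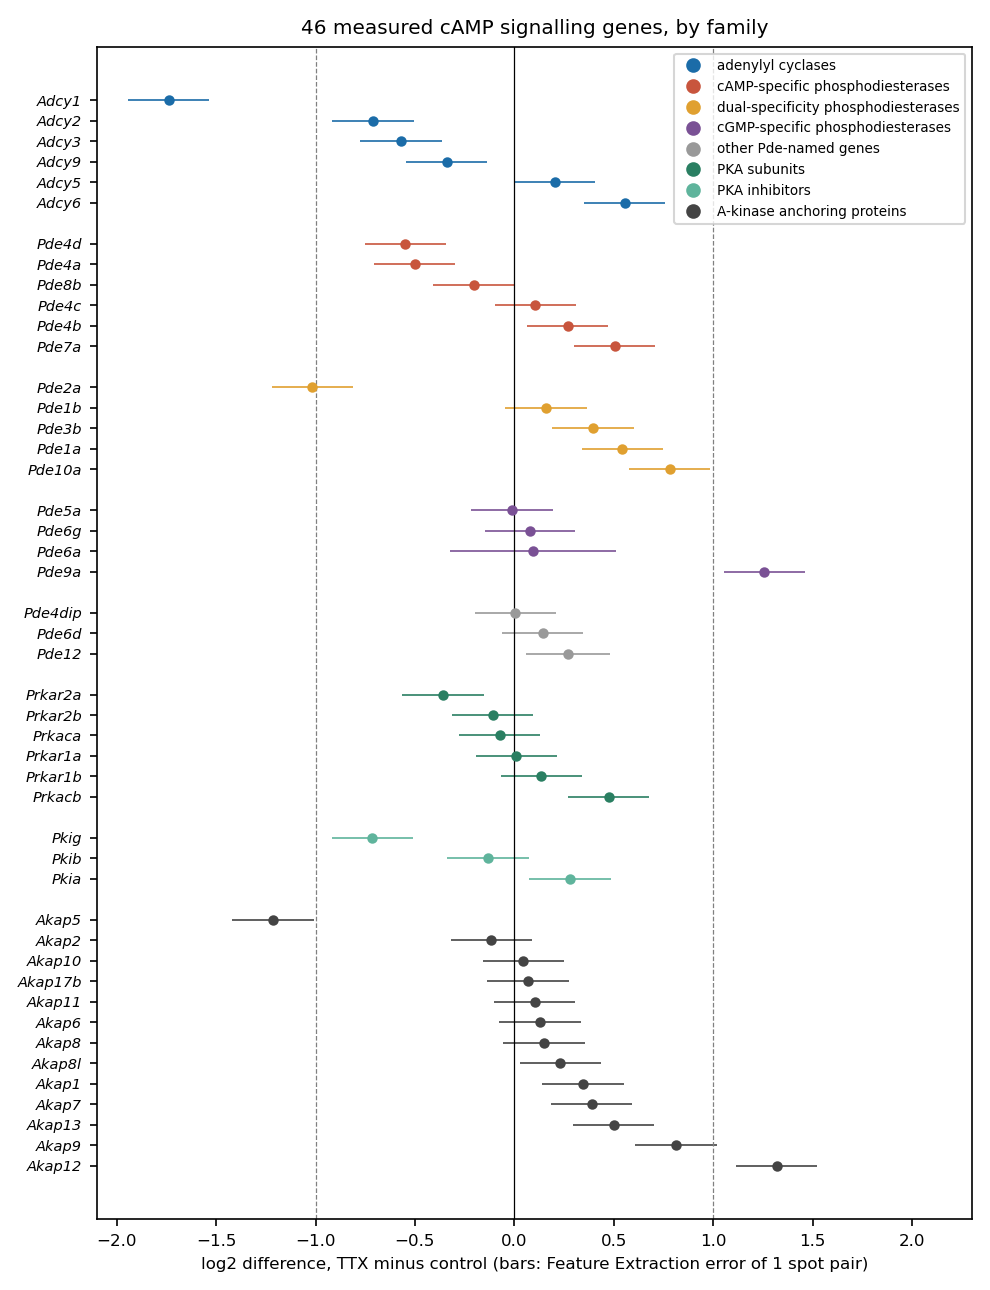
Log2 difference (TTX minus control, x axis) of each of the 46 measured genes, grouped and coloured by family, with the scanner software's error of a single pair of spots as bars and dashed lines at 2-fold. Adcy1, Akap5 and Pde2a lie at or beyond the lower line and Pde9a and Akap12 beyond the upper one, while all 6 PKA subunits lie between -0.36 and 0.47.

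The arrays read these genes through probes of 60 bases, and the middle 30 bases (16 to 45) of each measured probe of the 5 genes are shown because every value for them rests on these oligonucleotides. All letters are in lower case, 5′ to 3′ along the probe.
Adcy1, 7077699 to 7077755 on chromosome 11: atgccttgaaattccttactgtgtgcacct
Akap5, 77434981 to 77435040 on chromosome 12: tttgtatcctcattgaaattagtactactg
Pde2a, 108661268 to 108661327 on chromosome 7: ccgtgggctgagtgctttgtacatgagaat
Pde9a, 31610161 to 31610220 on chromosome 17: acagtgaaggccattctcctccaaactgat
Akap12, bright probe, 5987207 to 5987266 on chromosome 10: ggaccgaattcatatgcagattgaagtgag
Akap12, dim probe, 5991250 to 5991309 on chromosome 10: attcctggacggcggaagaaaagggcagat
Positions are those that the array files give for each probe in mm9. They span 60 bases, except for Adcy1, where they span 57 of the 60. Both Akap12 probes are on the minus strand and the others on the plus strand. The exon or untranslated region that each probe lies in was not looked up here, since no genome of that build was used. Adcy1, Akap5, Pde2a and Pde9a each rest on a single measured probe.

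Adenylyl cyclases were measured for 6 of 10 genes, of which 4 were below 0 and 2 above, with a family median of -0.46. Adcy1, the calcium- and calmodulin-stimulated cyclase of forebrain neurons, had a signal of 7730 in control and 2316 in TTX, a 3.34-fold lower value (-1.74). Only 0.88% of all measured genes were lower than that. The other calcium-stimulated cyclase of hippocampus, Adcy8, was not well above background on either array, with signals of 15.5 and 16.2.

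Adcy2, which is stimulated by G protein beta-gamma subunits, came next at -0.71, from a signal of 1270 to 776. Adcy3, the cyclase of olfactory and neuronal cilia, was at -0.57, with signals of 380 in control and 256 in TTX. Adcy9, known for its weak response to forskolin, was at -0.34 (5853 and 4621). The calcium-inhibited pair lay on the other side of 0. Adcy6 was at 0.55, with signals of 620 and 910, and Adcy5 at 0.20, where its 3 probes ranged from 0.20 to 0.30. The signs of all 6 measured cyclases were the same under each of the 8 ways of processing that were run, and Adcy1 lay between -1.93 and -1.74. The 8 include the reported one. For a cyclase with a single probe, the changed filters and the mean over probes could not alter the value.

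**Figure D2:**
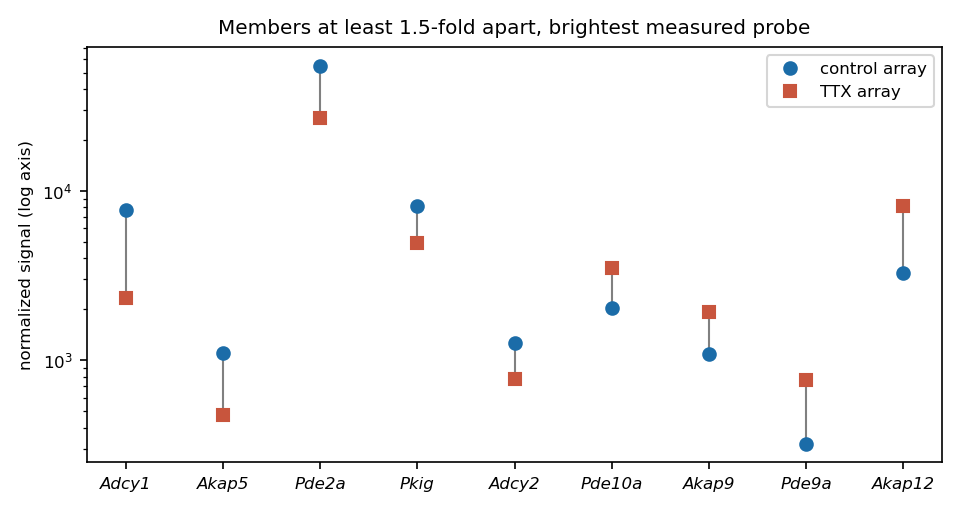
Normalized signal (log axis) on the control array (circles) and the TTX array (squares) for the 9 members at least 1.5-fold apart, ordered by their difference. The control point is the upper one for Adcy1, Akap5, Pde2a, Pkig and Adcy2, and the TTX point is the upper one for Pde10a, Akap9, Pde9a and Akap12; heights of different genes are not comparable because each comes from another probe.

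Among phosphodiesterases that hydrolyse cAMP alone (the Pde4, Pde7 and Pde8 genes), 6 of 8 were measured. None passed 1.5-fold, 3 were below 0 and 3 above, and the median was -0.05. Pde4 enzymes are the main cAMP phosphodiesterases of neurons and the targets of rolipram, and their genes did not share a direction. Pde4d was at -0.55, with signals of 414 in control and 283 in TTX, and its 3 measured probes lay between -0.83 and -0.53. Pde4a was at -0.50, from 8429 to 5955, and its other probe gave -0.46.

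Pde4b was at 0.27 at its brightest probe (545 and 656) and at -0.18 at a dimmer one (132 and 117), so its direction depended on the probe. Pde4c was at 0.10, from 31519 to 33885, a value that was -0.01 with scaling on spike-in controls. Of the others, the rolipram-insensitive Pde7a was at 0.50 and 0.31 at its probes, with signals of 324 and 460 at the brighter. Pde8b, a high-affinity cAMP phosphodiesterase, was at -0.21 (669 and 580).

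The enzymes that take both cAMP and cGMP (Pde1, Pde2, Pde3, Pde10 and Pde11 genes) were measured for 5 of 8. Pde2a, which cGMP activates and which lets cGMP lower cAMP, had the only lower value of the 5. Its signal was 54795 in control and 27077 in TTX, a 2.02-fold lower value (-1.02) that only just passed the rule and ranged from -1.14 to -1.01 under the alternatives. The other 4 were above 0. Pde10a, best known from striatal medium spiny neurons, was 1.72-fold higher at 0.78, from 2042 to 3505, with 0.59 at its other measured probe. Pde1a, a calcium- and calmodulin-activated enzyme, was at 0.54 (7188 and 10459) at the probe annotated to its RefSeq transcripts and at -0.10 (1220 and 1137) at a probe for which the files list no RefSeq transcript. Its relative Pde1b was at 0.16 (4235 and 4726), and the insulin-regulated Pde3b at 0.40 (241 and 317). The family median was 0.40.

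Of the genes for cGMP-specific enzymes and their inhibitory subunits (Pde5, Pde6 and Pde9 genes) 4 of 7 were measured. Pde9a, the phosphodiesterase with the highest known affinity for cGMP, was 2.39-fold higher in TTX at 1.26, from a signal of 322 to 769, and 98.8% of all measured genes were lower than that. Pde5a, the sildenafil target, was level at -0.01 (388 and 384). The rod photoreceptor subunits Pde6g, which is inhibitory (0.08, signals of 88.6 and 93.4) and Pde6a, which is catalytic (0.09, signals of 22.8 and 24.3) were the only members among the 20% of measured genes with the lowest control signals. Pde2a and Pde9a, which both act on cGMP, thus lay at least 2-fold apart from control in opposite directions.

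The 3 genes that carry a Pde name only differed little. The centrosomal and Golgi protein Pde4dip (myomegalin) had 4 measured probes. The brightest gave 0.00 (11749 and 11785) and the next 0.05. The lowest, annotated to another of its RefSeq transcripts, gave -0.42 (2531 and 1892), and the dimmest gave 0.14 (282 and 311). The prenyl-binding Pde6d was at 0.14 and the mitochondrial exonuclease Pde12 at 0.27.

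All 6 PKA subunits were measured, and each differed by less than 1.5-fold. The catalytic subunits differed from each other: Prkacb was at 0.47, with signals of 27324 in control and 37923 in TTX, and its other probe gave 0.48. Prkaca was at -0.07, with signals of 735 and 698. Among the regulatory subunits the type I genes Prkar1a (6358 and 6397) and Prkar1b (39343 and 43173) were at 0.01 and 0.13. The type II genes Prkar2a (693 and 540) and Prkar2b (9097 and 8432) were at -0.36 and -0.11. The measured probes of Prkar1a gave 0.01 and -0.01, and its sign changed with the processing. The median of the 6 was -0.03, or -0.19 with scaling on spike-in controls.

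The PKA inhibitor peptides bind the free catalytic subunit as pseudosubstrates and carry it out of the nucleus. Pkig, the broadly expressed gamma form, was 1.64-fold lower at -0.71, from 8128 to 4952, and its other probe was lower still at -0.96 (768 and 394). Pkib was at -0.13 (588 and 536). Pkia, the form abundant in brain and muscle, was at 0.28 (3447 and 4182). So 1 of the 3 passed 1.5-fold, and the median was -0.13.

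A-kinase anchoring proteins were measured for 13 of 16 genes, with 2 below 0 and 11 above, a median of 0.15 and both extremes past 2-fold. Of the 11, Akap6, Akap10, Akap11 and Akap17b changed sign under at least 1 of the alternatives and the other 7 did not. Akap5, which holds PKA, protein kinase C and the phosphatase calcineurin beside AMPA receptors and L-type calcium channels, had a signal of 1105 in control and 476 in TTX. That is 2.32-fold lower (-1.21), and the value stayed between -1.32 and -1.09 under the alternatives. Its direction was shared by only 1 other anchoring protein, Akap2 (named Pakap in RefSeq), at -0.12 (3114 and 2871).

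Akap12, or gravin, which organises PKA and protein kinase C at beta-adrenergic receptors and the cell cortex, was 2.49-fold higher at 1.32, from 3279 to 8179. Its other probe gave -0.30 at signals of 30.5 and 24.8, so close to background that the scanner software's error was 0.38. With the mean of both probes Akap12 was at 0.51 and no longer past 2-fold. Akap9, the large centrosomal and Golgi anchor whose short form binds NMDA receptors, was 1.76-fold higher at 0.81, from 1092 to 1918 at its only measured probe. Akap13 was at 0.50, and its 4 probes agreed in direction (0.37 to 0.50). The membrane-bound Akap7 was at 0.39, with 3 probes between 0.38 and 0.66, and the mitochondrial Akap1 at 0.34 (707 and 897).

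The remaining anchors were closer to 0. The nuclear proteins Akap8l and Akap8 were at 0.23 and 0.15, and Akap6, which anchors PKA at the nuclear envelope, was at 0.13. Akap11 was at 0.10 at its brightest probe (6910 and 7410), and at 0.02 and -0.05 at the others. Akap17b was at 0.07 (632 and 662) and at -0.14 at its dimmer probe (189 and 172). Akap10 was at 0.04 (419 and 433).

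Several probes per gene give an internal check on these values. Of the 46 members, 22 had more than 1 measured probe. In 15 of them the probes lay within 0.25 of each other, and the median span was 0.18. In 7 the probes differed in sign: Akap11, Akap12, Akap17b, Pde1a, Pde4b, Pde4dip and Prkar1a. Only Akap12 spanned 1 log2 or more.

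**Figure D3:**
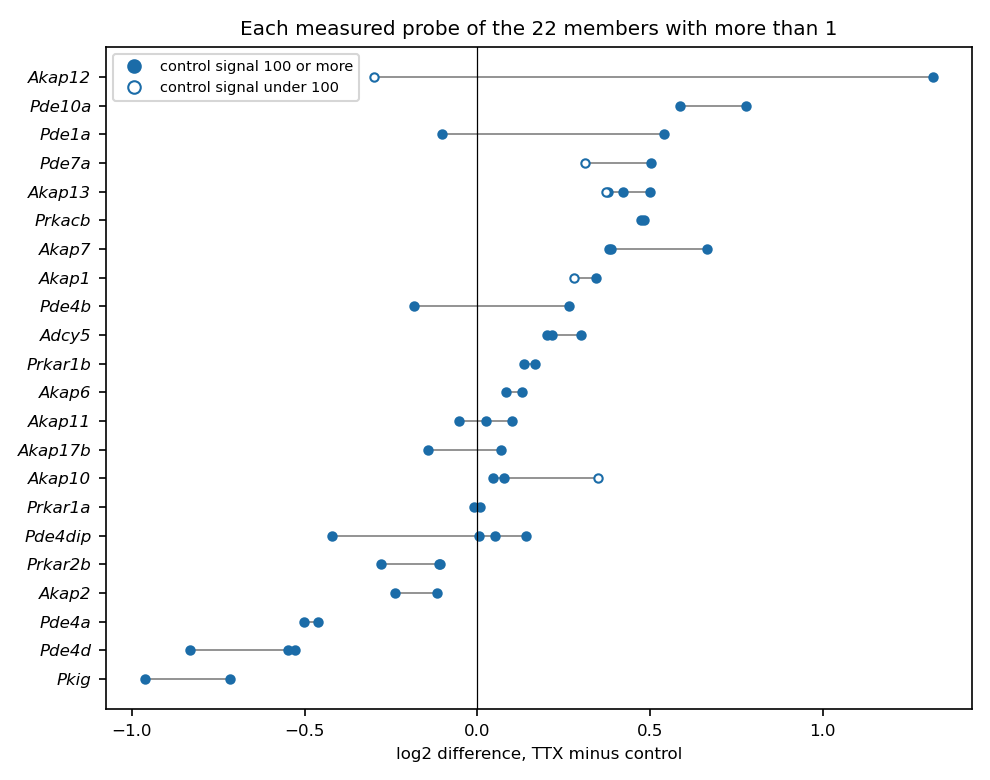
Log2 difference (TTX minus control, x axis) of every measured probe of the 22 members with more than 1, with a line joining the probes of a gene and open circles for probes with a control signal under 100. Probes of Prkacb, Pde4a and Prkar1b lie almost on each other, and the open circle of Akap12 at -0.30 lies far from its bright probe at 1.32.

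The array layout was checked around the 5 genes past 2-fold, because a difference between regions of the slide could move a single spot. The spots of Akap5 (row 7), Pde9a (row 11) and Akap12 (row 89) lay in the first 192 of 384 rows, and those of Adcy1 (row 196) and Pde2a (row 361) in the later ones. Measured probes within 10 rows and columns of these spots had median differences between -0.04 and 0.09. Single neighbours varied widely. With the lowest 5% and the highest 5% of neighbours left out, they ranged from -0.53 to 1.16 around Akap5 and -0.80 to 0.98 around Pde9a. The ranges were -0.65 to 0.92 around Akap12, -0.84 to 0.63 around Adcy1 and -0.71 to 0.61 around Pde2a. Genes within 1 log2 of a member's control signal were also counted where they passed 2-fold in its direction, in the first 192 rows and in the later ones. The shares were 3.99% and 2.33% for Adcy1 and 0.584% and 1.04% for Akap12, the pairs that differed most between the blocks. They were 3.05% and 3.14% for Akap5, 2.05% and 2.83% for Pde2a, and 2.55% and 2.02% for Pde9a. The part of spot position in the 5 differences was not tested.

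Promoters were searched because PKA acts on transcription through the cAMP response element, the palindrome TGACGTCA bound by CREB. RefSeq promoter windows (GRCm38.p6, 250 bases before to 50 after a start site) were found for 50 of the 61 members, and 100 windows were searched. The only member with the full element was Prkar1a, shown here with the element in capitals, starting 49 bases before the start site, at chr11:109650889-109650918 on the plus strand.
Prkar1a: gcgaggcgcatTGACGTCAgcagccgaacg
The full element was in 2.00% of members and 2.03% of all genes with a window, and in 2.63% of measured members and 3.58% of measured genes. The shorter core TGACG, on either strand and also counted inside the full element, was in 39.5% of the 38 measured members with a window and in 34.2% of measured genes. A gene was counted if any of its windows held the core, so genes with more windows had more ways to be counted. Per window the order was the reverse, with 21.7% of the 83 windows of measured members and 29.4% of the 14162 windows of measured genes. Of the genes past 2-fold, Adcy1, Akap5 and Pde2a had windows. The core was in 1 of the 5 windows of Pde2a, and these letters were in no window of Adcy1 or Akap5. A match of letters is a description and says nothing about binding.

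Other genes of the pathway were taken from lists of receptors, ligands, G proteins and effectors. The lists were drawn up with earlier results of these data known. Their counts beside the shares of all genes are therefore a description and not evidence of an excess. Of 84 measured genes in 8 such lists (108 genes in all), 13 were at least 2-fold lower and 4 at least 2-fold higher, with a median of -0.14, where 3.4% and 2.09% of all measured genes were lower and higher by that rule. The widest difference was in Adcyap1, which encodes PACAP, a peptide that raises cAMP through Gs, with signals of 655 in control and 23.0 in TTX (-4.83). The gene for its main receptor, Adcyap1r1, was 2.24-fold higher (1.16), from 1040 to 2327. The receptor Vipr1, shared by PACAP and VIP, was at -1.03, or -0.80 as the mean of its probes. Of the 12 measured Gs-coupled receptors, 10 were below 0 and 5 at least 2-fold lower, where 6837 of all 14016 measured genes were below 0 and 3.4% at least 2-fold lower. Besides Vipr1 these were the dopamine receptor Drd1 (-2.17, signals of 117 and 26.01), the corticotropin-releasing hormone receptor Crhr1 (-2.16, from 1934 to 432), the serotonin receptor Htr7 (-1.78, from 371 to 108) and the constitutively active Gpr12 (-1.13). The melanocortin receptor Mc4r was higher (1.06, signals of 43.6 and 90.5). With normexp background correction Gpr12 (-0.87) and Mc4r (0.51) did not pass 2-fold.

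The Gi-coupled receptors, which lower cAMP, were divided around 0 (8 of 18 below). The alpha-2 adrenergic receptor Adra2a was 3.78-fold higher (1.92, from 1333 to 5039) and the somatostatin receptor Sstr3 2.77-fold lower (-1.47). The serotonin receptor Htr1a was at 1.01, or 0.61 with normexp, and Npy2r, above background in TTX only, was at least 2.65-fold higher (6.69 and 42.4). Of the peptide ligands 4 of 8 were at least 2-fold lower, against 3.4% of all measured genes: Adcyap1, Pnoc (-2.17), Npy (-1.60) and Penk (-1.52). The ligand list, too, was drawn up with earlier results of these data known.

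No G protein subunit between receptors and cyclases passed 2-fold. Gnas, the Gs alpha subunit, was at -0.08 (69255 and 65519), Gnal, its olfactory and striatal relative, at 0.37, and the inhibitory Gnai2 at 0.53. Gnao1, abundant in brain, was at -0.33. Their regulators Rgs4 (-2.95) and Rgs2 (-1.80), which shorten G protein signals, were the 2 genes of that list past 2-fold.

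Downstream of cAMP, none of the 11 CREB-arm genes and none of the 11 phosphatase-arm genes passed 2-fold. Creb1 was at 0.14 and -0.32 at its probes, and Crem was at -0.23. The CREB-coactivator kinases Sik2 and Sik3 marked the ends of that list at 0.69 and -0.53. Ppp1r1b, the PKA-regulated phosphatase inhibitor DARPP-32, was at 0.58 and Arpp21 at -0.49. Of the cAMP-activated exchange factors, Rapgef3 (Epac) was at 0.92, from 679 to 1283, and Rapgef4 at -0.39. The cAMP-binding membrane protein Bves was at -1.24. The exporters Abcc4 (-0.31) and Abcc5 (0.28) lay on either side of 0.

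**Figure D4:**
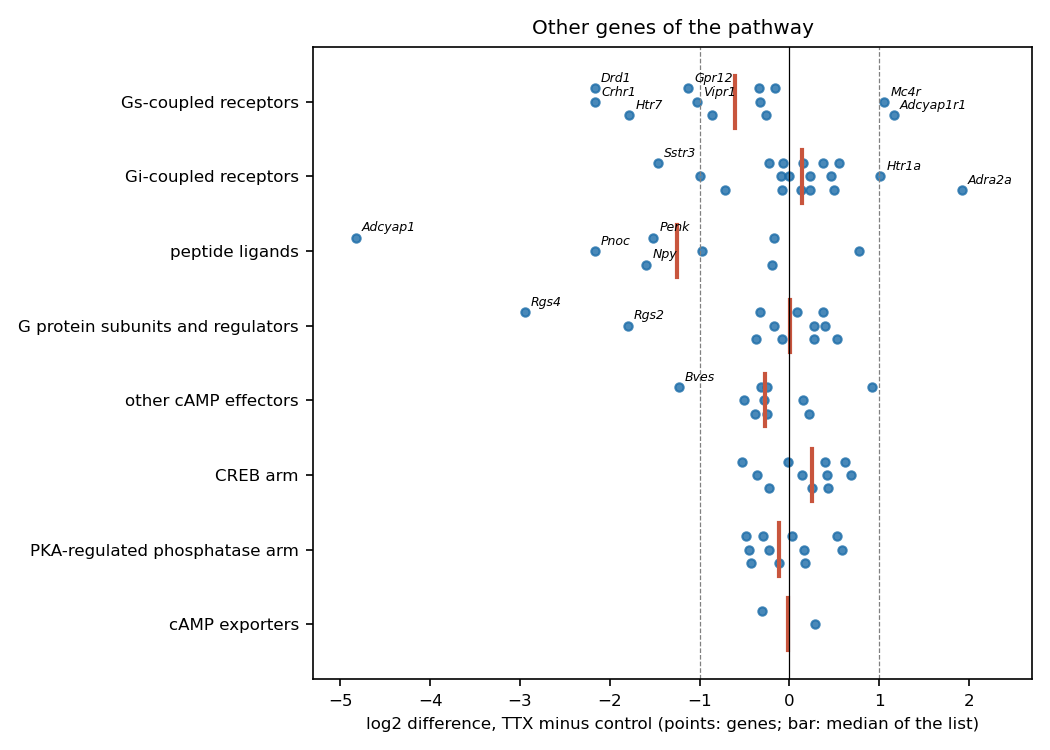
Log2 difference (TTX minus control, x axis) of each measured gene (points) in 8 lists of other pathway genes, with the median of each list as a bar, dashed lines at 2-fold and names for genes past them. Peptide ligands and Gs-coupled receptors have the lowest medians (-1.25 and -0.61), while no gene of the CREB arm, the phosphatase arm or the exporters lies beyond a dashed line.

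The cultures held neurons and other cells. All 10 neuron markers were measured on both arrays, 6 of them below 0 with a median of -0.30, and their summed signal was 187573 in control and 158915 in TTX. The neurofilament gene Nefm was the only 1 past 2-fold (-1.20, from 6783 to 2954). Of the excitatory neuron markers 4 of 5 were below 0 (median -0.54, sums of 22937 and 16215), with Neurod6 past 2-fold (-1.10, from 7486 to 3487). All 5 interneuron markers were below 0 (median -0.19, sums of 55421 and 44128). Of 7 measured astrocyte markers 6 were above 0, with a median of 0.24 and sums over the list of 45919 and 55132, most of it from Aldoc (38706 and 44061). All 4 measured fibroblast markers were above 0 (median 0.22, sums of 772 and 977), and Lum, above background in TTX only, was at least 3.04-fold higher (11.7 and 48.5). Of the microglia markers 4 of 6 were above 0 (median 0.26). Their sums of 19233 and 21355 came almost wholly from the probe of Itgam, at 18172.5 and 20323, and Cx3cr1 was not above background on either array. Of the endothelial and mural markers 2 of 4 were above 0 (sums of 701 and 783), with Cldn5 and Cdh5 not above background. Of the oligodendrocyte lineage markers 4 of 5 were above 0 (median 0.02, sums of 1615 and 1820), with Olig2 and Pdgfra not above background. Of 5 markers of dividing cells Mki67 was at 3.48 (31.6 and 352) and Pcna at 0.07, Ccnb1, above background in control only, was at least 2.93-fold lower, and Top2a and Cdk1 were above background on neither array. Akap12, Pde9a, Akap9 and Pde10a were higher in the TTX culture, where most measured astrocyte, microglia and oligodendrocyte lineage markers were above 0, though Aldh1l1 (-0.14), Csf1r (-0.36), Aif1 (-0.05) and Mog (-0.18) were not. Adcy1, Akap5, Pde2a, Pkig and Adcy2 were lower in that culture, as were most neuron, excitatory neuron and interneuron markers. The neuron markers Map2 (0.35), Tubb3 (0.47), Snap25 (0.07) and Elavl4 (0.37) and the excitatory neuron marker Slc17a6 (0.74) were instead above 0. The part of cell composition in the differences of these members was not tested.

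**Figure D5:**
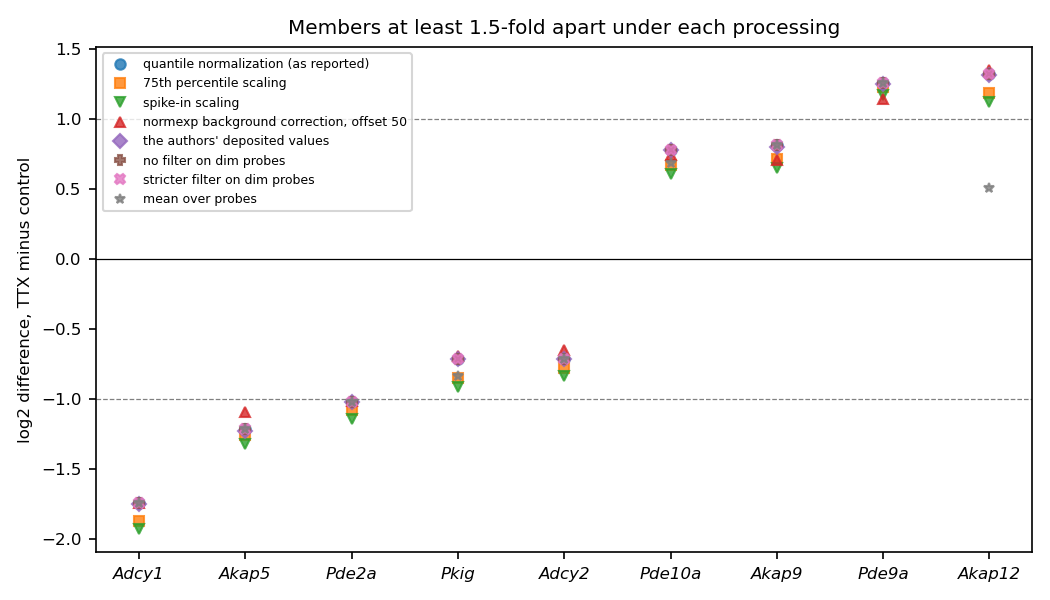
Log2 difference (TTX minus control, y axis) of the 9 members at least 1.5-fold apart under quantile normalization and 7 other ways of processing (symbols), with dashed lines at 2-fold. Points of a gene lie close together except for Akap12, where the mean over probes gives 0.51.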

How the data were processed

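Feature Extraction files of 2 arrays, 1 per group, were used. Per the file headers they hold linear spot intensity after background subtraction and detrending by version 10.7.1.1 (the submitters' processing notes name 9.5.1.1). The authors' deposited value table also holds linear intensity. Both its columns have a median of 24.9, as quantile normalization (named in the design text) gives, and its differences correlated at 0.9999 with those computed here across measured probes. The scanner files' background and outlier flags (other values, 0 or 1, as deposited) were used as given.

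Spots marked as outliers on either array were left out (131 on control and 170 on TTX), and none was saturated. Processed signals of non-control spots were quantile normalized, put on a log2 scale here and averaged per probe. A probe counted as measured when, on each array, a share of 0.5 or more of its spots was flagged well above background, as were 54.2% of all spots on control and 52.2% on TTX (27398 measured probes). A gene took its brightest measured probe. Of 55679 probes, 30847 had a symbol through RefSeq (GRCm38.p6, names and promoters only). All 61 member genes matched, 1 under a new symbol. A bound used, on the dim array, the lowest signal above background or the probe's own signal if that was higher.

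The size rule was 2-fold. All members are named. Of the other pathway lists, genes past 2-fold (measured or as a bound) are named, otherwise the ends of a list, and always Gnas, Gnal, Rapgef3, Rapgef4, Creb1, Crem, Ppp1r1b, Adcyap1 and Adcyap1r1. The members, lists and rules were chosen with earlier results of these data known. Alternatives were 75th percentile and spike-in scaling, normexp with an offset of 50 (limma 3.58.1), the deposited values, no filter, a stricter filter (percentile 25), the mean over probes, and 1.5-fold and 3-fold rules. Steps were tested on simulated data. Python 3.11.15 was used.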

Additional observations from a re-analysis of the deposited data

How the results depend on the processing

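No member past 2-fold changed sign under any alternative run. For members with a single probe, the changed filters and the mean over probes could not alter the value, and the deposited values were nearly those reported. Their agreement under those alternatives is therefore no check. With no filter on dim probes 8 of 61 members were at least 2-fold lower and 4 higher, since members not above background were then counted. Under that setting 6.18% and 4.80% of all 22146 genes were lower and higher by the same rule. The adenylyl cyclase median was then -0.17. With the mean over probes 1 member of 46 was at least 2-fold higher, where 2.05% of all measured genes were. The median of the dual-specificity phosphodiesterases was then 0.22. When every measured probe had to pass (chosen after seeing the data) 1 was higher. The 1.5-fold rule gave 5 lower and 4 higher, where 8.64% and 7.66% of all measured genes were, and the 3-fold rule 1 and 0. For the 3-fold rule and the rule on every measured probe, no share of all genes is given here. Spike-in scaling put the PKA subunit median at -0.19. Spike-in scaling also put the median of the other Pde-named genes at -0.043. Of 321 member values under alternatives, 276 were counted as unchanged and 45 as moved. For bright genes the limit was tighter than the pooled spread between repeated spots. Prkacb, for example, was counted as moved from 0.47 to 0.40 with 75th percentile scaling. Of the 46 members 36 kept their sign under every processing, and those that did not were within 0.16 of 0. Signal over background limits the 15 members not measured on both arrays. No paired analysis was possible because each group has 1 array.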
